A study of Mus musculus with 6 samples.

Results

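The genes described here are 10 regulators and markers of undifferentiated spermatogonia, the stem and progenitor cells at the base of the male germ line. They were taken by symbol from the table of read counts, in which they are 10 of 54532 genes: Sall4, Zbtb16, Foxo1, Etv5, Id4, Gfra1, Lin28a, Trim71, Nanos3 and Uchl1. The RNA came from leptotene/zygotene (L/Z) spermatocytes, the cells of early meiotic prophase, sorted by Hoechst staining of their DNA from mouse testes at 12 dpp (days postpartum). There were 3 control libraries, labelled wild type and described by the study as littermates, and 3 Eef1g-cKO libraries, all on the C57BL/6J background. In Eef1g-cKO males a floxed Eef1g gene, which encodes a subunit of the translation elongation complex eEF1B, was deleted with Stra8-GFPCre. Recombination by this Cre begins, per the study, in type A1 spermatogonia, which come after the undifferentiated stage. The labels do not say whether the libraries of a group came from separate males, so the p-values measure the spread between these libraries.

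Undifferentiated spermatogonia renew themselves or give rise to chains of progenitors that respond to retinoic acid and become differentiating spermatogonia, which then enter meiosis. The balance is held by GDNF signalling through GFRA1 and RET, by transcription factors such as PLZF (Zbtb16), SALL4, FOXO1, ETV5 and ID4, and by RNA-binding proteins such as LIN28A, TRIM71 and NANOS3. These transcripts are known from spermatogonia and are mostly low in cells that have entered meiosis, so the comparison asks how much of this programme was present in the sorted spermatocytes of each genotype.

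Sequences are shown first for the let-7 microRNA pathway, which links the RNA-binding members Lin28a and Trim71. LIN28A blocks the maturation of let-7 microRNAs, and Trim71 and Lin28 transcripts are textbook let-7 targets. Of the distinct mature let-7 sequences in RefSeq (GRCm38.p6), 9 share the seed GAGGUAG at bases 2 to 8 and 1, let-7j, does not. The microRNAs themselves were not measured here. In the lines that follow, capitals mark the seed in 3 of the family and in let-7j.
mmu-let-7a-5p: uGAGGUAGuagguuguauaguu
mmu-let-7g-5p: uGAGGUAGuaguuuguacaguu
mmu-let-7i-5p: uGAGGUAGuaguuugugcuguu
mmu-let-7j: uGAGGUAUuaguuugugcuguuau

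The letters complementary to the seed, CTACCTC, were searched on the transcribed strand of the longest annotated 3′ UTR of each gene (GENCODE M21, GRCm38). A match stood in 9.02% of 21024 genes. Trim71 held 4 matches, as many as 0.505% of the 792 genes with a 3′ UTR of like length, and Lin28a held 2, as many as 2.06% of 2430 such genes. Sall4 and Zbtb16 held 1 each, and the 3′ UTRs of Foxo1, Etv5, Id4, Gfra1, Nanos3 and Uchl1 held none of these letters. Lin28b, the paralog of Lin28a and not a member, held 4. The matches of Trim71 and Lin28a and 1 of Lin28b are given with 11 bases on either side and the match in capitals. A match is a description of the letters and not a measured site.
Trim71 site 1, chr9:114512462-114512490, minus strand: ttgcctaagtcCTACCTCagcttaaattt
Trim71 site 2, chr9:114512366-114512394, minus strand: ataatttctatCTACCTCaactctttgca
Trim71 site 3, chr9:114509037-114509065, minus strand: gtatggattttCTACCTCaattttggcaa
Trim71 site 4, chr9:114509011-114509039, minus strand: caaaaagttgtCTACCTCacgtcggcacc
Lin28a site 1, chr4:134005179-134005207, minus strand: agcctgttgaaCTACCTCatttttgccga
Lin28a site 2, chr4:134004541-134004569, minus strand: tcgccacaaacCTACCTCactgtgttgaa
Lin28b site 1, chr10:45381012-45381040, minus strand: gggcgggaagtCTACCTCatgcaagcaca

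Most markers of the labelled stage were well above the floor in the sorted cells. Sycp1, Sycp2 and Sycp3, which encode parts of the synaptonemal complex, were at 4810 to 5250, 1430 to 1710 and 1240 to 1450 CPM (reads per 1000000 of the TMM-scaled library) in the controls, and at 8560 to 13100, 2890 to 3860 and 2690 to 3230 CPM in Eef1g-cKO. Of the 10 L/Z markers, Rec8, a meiotic cohesin subunit, was the exception, with 0, 5 and 2 reads in the controls and 5, 8 and 2 in Eef1g-cKO. Library totals ran from 763133 reads in Eef1g-cKO replicate 3 to 2617648 reads in Eef1g-cKO replicate 2, so that 3 reads were worth 4.63 CPM in the former and 1.18 CPM in the latter. Eef1g itself was at 220 ± 7.34 CPM (SD, n = 3) in the controls and 136 ± 16.0 CPM in Eef1g-cKO (log2 fold change -0.68, edgeR adjusted p = 0.029), and reads from exons outside the deleted ones also count towards it.

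Of the 10 members, 4 stayed above 3 reads in every library: Uchl1, Foxo1, Trim71 and Id4. The counts of members above 3 reads were 8, 9 and 10 in control replicates 1, 2 and 3 and 5, 6 and 4 in Eef1g-cKO replicates 1, 2 and 3. Every control library held Sall4, Zbtb16, Foxo1, Etv5, Id4, Lin28a, Trim71 and Uchl1 above that floor, which is 8 members, and Nanos3 joined them in replicates 2 and 3 and Gfra1 in replicate 3 alone. In Eef1g-cKO, Sall4 fell under the floor in replicate 3 and Etv5 was above it in replicate 2 alone. Zbtb16, Gfra1, Lin28a and Nanos3 were at 3 reads or fewer in each Eef1g-cKO library. Among all 9615 genes above 3 reads in every control library, 6996 (72.8%) were also above 3 reads in every Eef1g-cKO library, against 4 of 8 members. That share was not matched for level. Of the 8, Lin28a, Etv5 and Zbtb16 were near the floor, with 5, 6 and 7 reads in their lowest control library. The shares are thus not like for like. With every library thinned to the 763133 reads of the smallest, the counts were 8, 6 and 7 in the controls and 4, 4 and 4 in Eef1g-cKO. These were not the same members in each Eef1g-cKO library. Only 3, Uchl1, Foxo1 and Id4, were then above 3 reads in all of them, and Trim71 had 1 read in replicate 1. These floors cover counting error only, because amplified cDNA without molecular identifiers was counted.

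**Figure D1:**
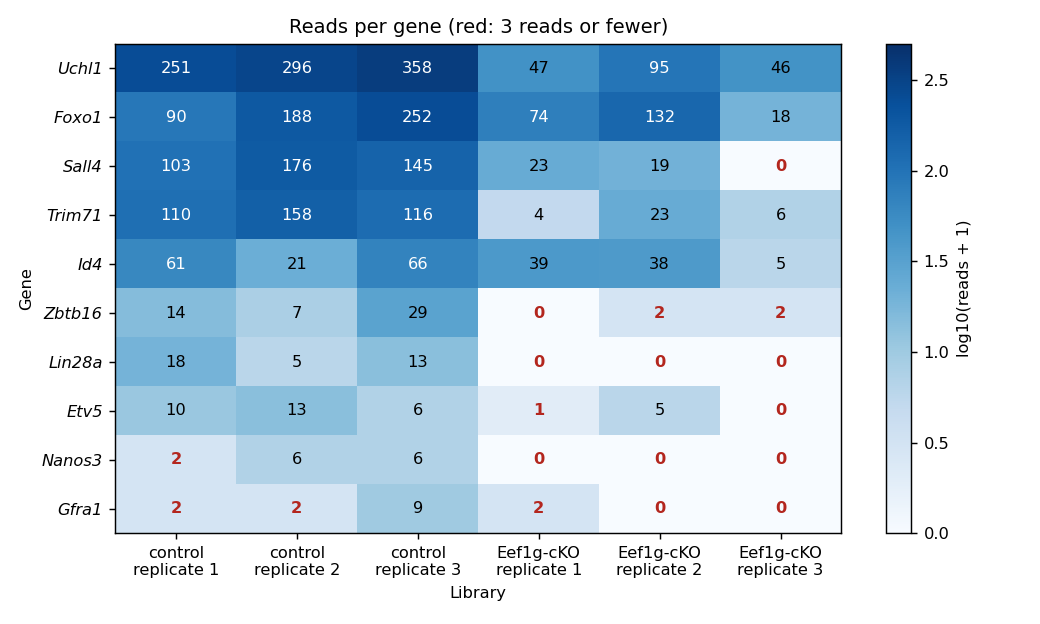
Reads of each gene (rows) in each library (columns), shaded by log10(reads + 1), with counts of 3 reads or fewer in red. The red cells lie mostly in the Eef1g-cKO columns, where Lin28a and Nanos3 had no read and Zbtb16 had at most 2.

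Summed over the 10 members, the level was 505, 457 and 559 CPM in the controls and 154, 123 and 119 CPM in Eef1g-cKO, and the groups did not overlap. The filter on low counts, about 6.7 CPM in at least 3 libraries, let 5 members into the test. Of these, Sall4, Trim71, Uchl1 and Foxo1 fell at an adjusted p under 0.05 and none rose, where 6.01% of the 8513 genes tested fell and 7.8% rose. All 4 also passed the study's fold limit, as 4.96% of tested genes did in this direction. Sall4, Trim71 and Id4 passed the filter with all 3 controls and 2 Eef1g-cKO libraries at or above it, while Uchl1 and Foxo1 were at or above it in every library. The untested members reached the limit in 2 or 0 control libraries and in 0 Eef1g-cKO libraries. A member low in every Eef1g-cKO library could thus enter only with all 3 controls at or above it. The count of fallen members describes those tested and not the 10. The median log2 fold change of the tested members was -1.96, against -0.05 over all tested genes. In 4 of the 5 tested members every Eef1g-cKO value lay below every control value, an ordering that 18.1% of tested genes had. Zbtb16, Etv5, Lin28a and Nanos3, which were not tested, had the same ordering on few reads. The 18.1% does not cover genes as low as these, and no share was computed for such genes. In bulk RNA from sorted cells, fewer spermatogonia among them and less of each transcript per cell cannot be told apart.

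**Figure D2:**
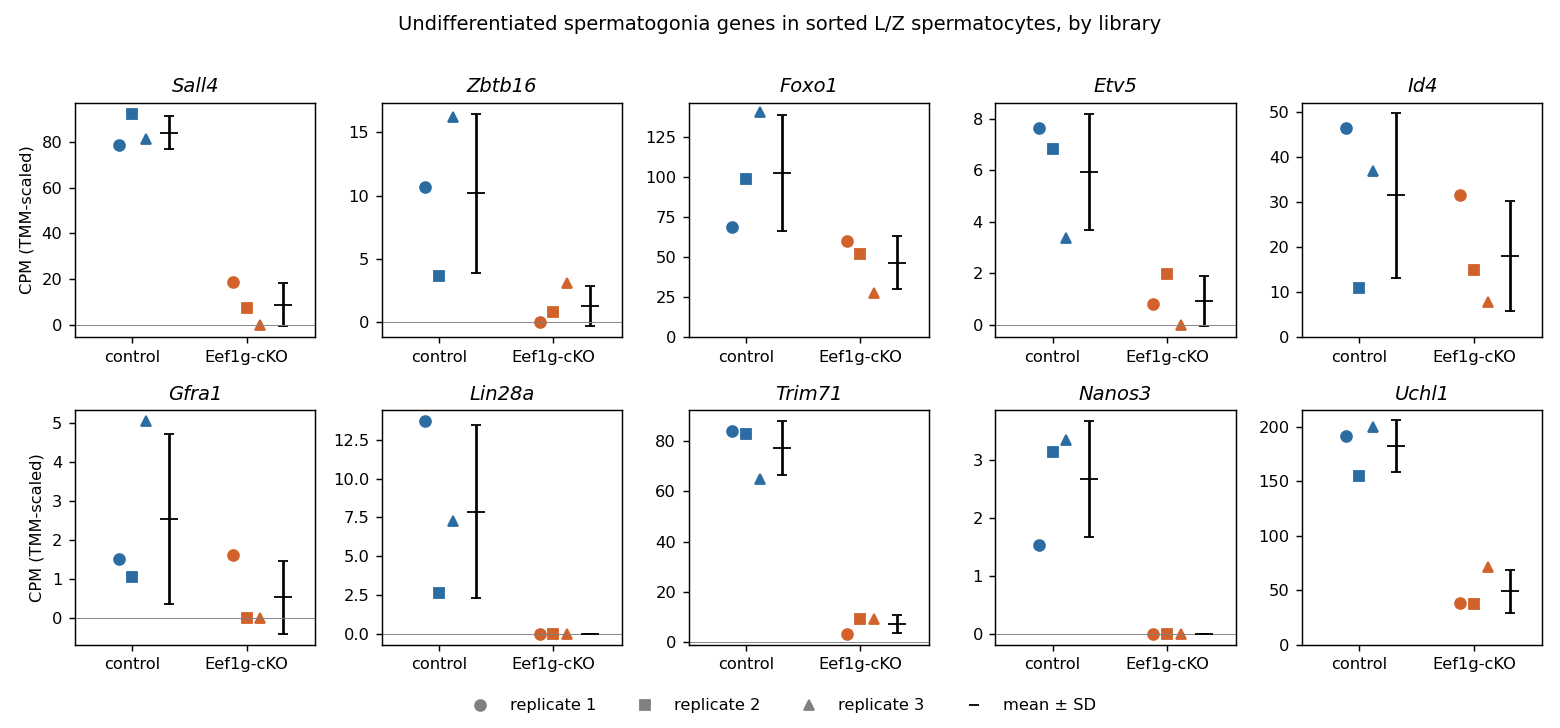
CPM of each member in each library (vertical axes from 0, a scale of its own in each panel), controls in blue and Eef1g-cKO in orange, with the mean and SD of 3 libraries beside each group. Sall4 (78.6 to 92.4 against 0 to 18.6 CPM) and Trim71 (64.9 to 84.0 against 3.23 to 9.27 CPM) separate widely, while Id4 and Gfra1 overlap between the groups.

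Sall4 (ENSMUSG00000027547, chr2:168748332-168767943) encodes a zinc-finger transcription factor of spermatogonial progenitors. Its level was 78.6, 92.4 and 81.2 CPM in the controls (103, 176 and 145 reads) and 18.6, 7.45 and 0 CPM in Eef1g-cKO (23, 19 and 0 reads). The controls lay close together and far above each Eef1g-cKO library. The mean fell from 84.1 ± 7.33 to 8.68 ± 9.36 CPM (SD, n = 3), which is -3.15 on the log2 scale (SE 0.54, adjusted p = 0.00101 in edgeR).

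Zbtb16 (ENSMUSG00000066687, chr9:48654297-48836222) encodes PLZF, a transcriptional repressor needed for stem cell maintenance. It had 14, 7 and 29 reads in the controls and 0, 2 and 2 in Eef1g-cKO, too few for the test. The groups did not overlap, but control replicate 2 (3.67 CPM) lay close to Eef1g-cKO replicate 3 (3.09 CPM). In the thinned libraries these 2 had 1 and 2 reads, so that the groups overlapped. Pooled over the libraries, the control level was 11.1 times the Eef1g-cKO level (95% exact interval 4.07 to 42.3, counting error only). Tested without a filter on low counts, it did not pass (edgeR adjusted p = 0.14).

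Foxo1 (ENSMUSG00000044167, chr3:52268336-52353221) encodes a forkhead factor that is held in the cytoplasm by PI3K and AKT signalling and acts in stem cell maintenance from the nucleus. It was at 68.7, 98.7 and 141 CPM in the controls and at 59.8, 51.8 and 27.8 CPM in Eef1g-cKO. The lowest control and the highest Eef1g-cKO library, both replicate 1, differed by less than the SD of either group. The mean was 103 ± 36.4 against 46.5 ± 16.7 CPM (SD, n = 3), and the log2 fold change was -1.11 (SE 0.34, edgeR adjusted p = 0.0342). This was the least firm of the 4 calls. It was lost without control replicate 2 (adjusted p = 0.0885), control replicate 3 (0.244), Eef1g-cKO replicate 2 (0.0562) or Eef1g-cKO replicate 3 (0.0673) in the edgeR fit, and with a correction for transcript GC content (0.0634).

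Etv5 (ENSMUSG00000013089, chr16:22381309-22439719) encodes an ETS factor that acts downstream of GDNF. Its 10, 13 and 6 reads in the controls stood against 1, 5 and 0 in Eef1g-cKO. In CPM the groups did not overlap (3.36 to 7.63 against 0 to 1.96 CPM), but the gene was left out of the main test by the filter. The pooled ratio was 4.29 (95% exact interval 1.75 to 12.6, counting error only). Tested without a filter on low counts, Etv5 did not pass (edgeR adjusted p = 0.475).

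Id4 (ENSMUSG00000021379, chr13:48261228-48266026) encodes an inhibitor of helix-loop-helix factors and marks the cells with most stem cell activity. It was at 46.6, 11.0 and 36.9 CPM in the controls and at 31.5, 14.9 and 7.72 CPM in Eef1g-cKO. The groups overlapped, and control replicate 2 was below 2 of the Eef1g-cKO libraries. The log2 fold change was -0.76 (SE 0.58) and did not pass the test (edgeR adjusted p = 0.429), nor did it under any of the other fits that could test it (adjusted p from 0.206 to 0.865).

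Gfra1 (ENSMUSG00000025089, chr19:58235604-58455909) encodes the co-receptor by which the stem cells sense GDNF. It was the least abundant member per length in the controls, with 2, 2 and 9 reads there and 2, 0 and 0 in Eef1g-cKO. The groups overlapped, and the gene did not pass when tested without a filter (edgeR adjusted p = 0.538). Its signalling partner Ret, named here after its values were seen, had 9, 12 and 28 reads in the controls and none in Eef1g-cKO, at least 14.5-fold lower against a floor of 3 reads over the group. Of the 10 genes of the GDNF pathway list (Gdnf, the receptors, and their kinases and targets), only 1 was tested: Yes1, a SRC family kinase, which rose (log2 fold change 0.87, edgeR adjusted p = 0.00521).

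Lin28a (ENSMUSG00000050966, chr4:134003330-134018841) had 18, 5 and 13 reads in the controls and none in the 3 Eef1g-cKO libraries. Against a floor of 3 reads over the group, 0.676 CPM, its level was at least 10.6-fold lower. The gene was left out of the main test by the filter, and without a filter it passed (edgeR adjusted p = 0.0213). It also entered the edgeR test when 1 of 4 libraries was left out, and there it passed without Eef1g-cKO replicate 3 (adjusted p = 0.0314) but not without control replicate 2 (0.0509), Eef1g-cKO replicate 1 (0.0592) or Eef1g-cKO replicate 2 (0.0753).

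Trim71 (ENSMUSG00000079259, chr9:114507133-114564369) encodes an RNA-binding ubiquitin ligase of progenitors and early embryos. It had 110, 158 and 116 reads in the controls and 4, 23 and 6 in Eef1g-cKO, or 84.0, 82.9 and 64.9 against 3.23, 9.02 and 9.27 CPM. Every Eef1g-cKO library lay far below the lowest control. The mean fell from 77.3 ± 10.7 to 7.17 ± 3.41 CPM (SD, n = 3), a fitted fold of 10.7 (log2 fold change -3.41, SE 0.44, edgeR adjusted p = 5.6e-05).

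Nanos3 (ENSMUSG00000056155, chr8:84173731-84185217) encodes a translational repressor of germ cells. It had 2, 6 and 6 reads in the controls and none in Eef1g-cKO, at least 4.14-fold lower against the same floor. It was not tested, and did not pass without a filter (edgeR adjusted p = 0.287).

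Uchl1 (ENSMUSG00000029223, chr5:66676091-66687234) encodes a ubiquitin hydrolase and is a marker of spermatogonia. It was at 192, 155 and 200 CPM in the controls and at 38.0, 37.2 and 71.1 CPM in Eef1g-cKO, and the groups did not overlap. The mean fell from 182 ± 23.9 to 48.8 ± 19.3 CPM (SD, n = 3), which is -1.96 on the log2 scale (SE 0.28, adjusted p = 0.000176 in edgeR). Per length, in RPKM, it was the highest member in both groups, at 112 ± 14.6 in the controls and 29.9 ± 11.8 in Eef1g-cKO, above Sall4 (15.2 ± 1.32) in the controls and Foxo1 (5.36 ± 1.92) in Eef1g-cKO without overlap. Below it, no pair of neighbours in either order separated beyond the spread of the libraries.

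Genes that overlap the members carried few reads. In GENCODE, 8 of the members overlap 11 other genes, and none of those had more than 4 reads in any library. Of the fallen members, Trim71 and Foxo1 are shown with their promoters as examples. The 250 bases before the RefSeq start (GRCm38.p6) are given, with GC boxes (GGGCGG) and CCAAT boxes (CCAAT) on either strand in capitals. A GC box stood in 32.7% and a CCAAT box in 33.8% of 32851 promoters of that length.
Trim71, chr9:114564370-114564619, minus strand: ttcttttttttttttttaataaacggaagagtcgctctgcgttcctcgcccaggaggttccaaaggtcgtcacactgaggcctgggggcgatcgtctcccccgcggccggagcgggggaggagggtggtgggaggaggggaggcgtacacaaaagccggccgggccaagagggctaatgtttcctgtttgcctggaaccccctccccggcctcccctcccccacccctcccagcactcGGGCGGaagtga
Foxo1, chr3:52268087-52268336, plus strand: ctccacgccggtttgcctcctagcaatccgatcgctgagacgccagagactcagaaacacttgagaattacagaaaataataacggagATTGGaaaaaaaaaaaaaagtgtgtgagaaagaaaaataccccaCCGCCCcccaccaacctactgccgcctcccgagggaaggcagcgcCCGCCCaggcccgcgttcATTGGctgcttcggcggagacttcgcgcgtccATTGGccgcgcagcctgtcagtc

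Trim71 had 1 GC box and no CCAAT box in this window, and Foxo1 had 2 GC boxes and 3 CCAAT boxes, so the pair differed in both counts.

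The paralogs of the members did not move as 1 set. Of 23 paralogs, 10 were tested, and Foxo3, Id2 and Nanos1 fell while Lin28b and Uchl3 rose. Foxo3, a forkhead factor of the same class, was at 49.6, 55.6 and 57.1 CPM in the controls and 17.0, 9.41 and 9.27 CPM in Eef1g-cKO (log2 fold change -2.18, edgeR adjusted p = 0.0023). Id2 went from 57.2, 52.5 and 48.7 to 9.70, 6.67 and 20.1 CPM (-2.25, adjusted p = 0.0035), and Nanos1 from 53.4, 67.2 and 66.6 to 22.6, 22.0 and 12.4 CPM (-1.67, adjusted p = 0.00611), with no overlap in either gene.

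Lin28b was at 61.8, 70.3 and 45.3 CPM in the controls and 108, 140 and 85.0 CPM in Eef1g-cKO (log2 fold change 0.92, edgeR adjusted p = 0.0395), above the controls in all 3 libraries, while its paralog Lin28a had no read there. Uchl3 was at 296, 257 and 314 against 507, 651 and 420 CPM (0.87, adjusted p = 0.0036), the opposite sign to Uchl1. Trim32, Uchl5, Id1, Id3 and Zbtb32 did not pass. Among the 15 genes of the LIN28 and let-7 list, Lin28b was the only gene of 12 tested that passed.

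**Figure D3:**
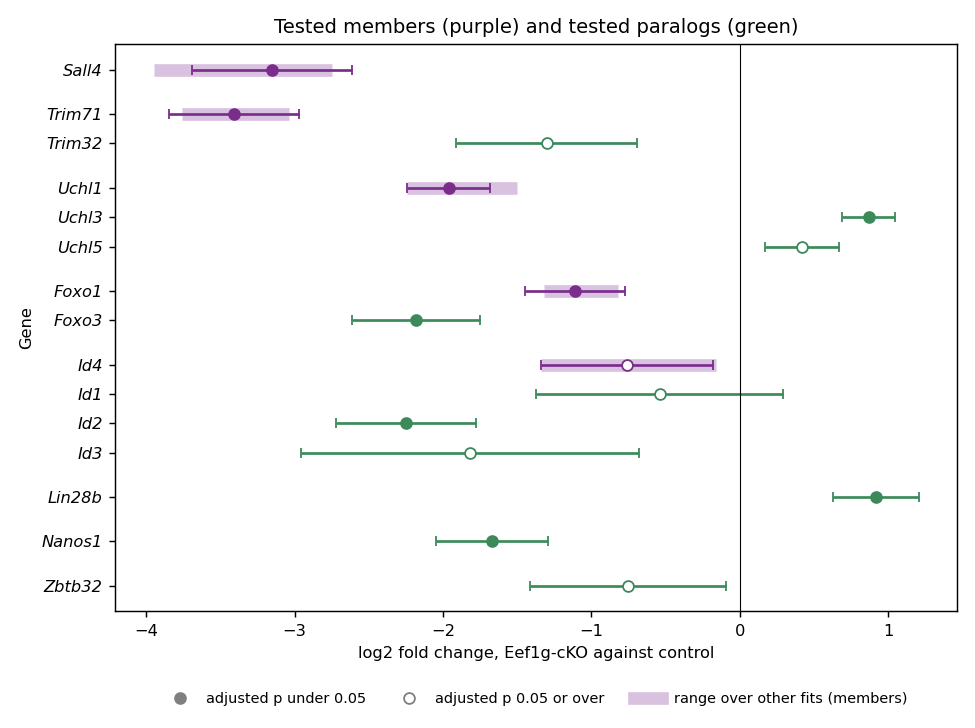
Log2 fold changes (points) with SE (bars) of Eef1g-cKO against control for the tested members in purple and the tested paralogs in green, filled where the adjusted p is under 0.05, with pale bands for the range of the members over the other fits. Trim71 and Sall4 lie at -3.41 and -3.15, and Uchl3 and Lin28b lie on the other side of 0, at 0.87 and 0.92.

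Other genes of the undifferentiated state gave few tests. Of 30, 8 were tested, and 1 fell, Pou3f1, a POU factor downstream of GDNF (log2 fold change -2.11, edgeR adjusted p = 0.0193), and 1 rose, Taf4b, a subunit of TFIID (0.64, adjusted p = 0.0184). Bmi1 and Epcam, the most abundant of the tested others, had log2 fold changes of -0.01 and 0.53 and did not pass. Of 17 genes of the PI3K and FOXO list, 14 were tested. Foxo3 fell, and Pdpk1, the kinase that activates AKT, rose (1.12, adjusted p = 0.000201). The median over the 8 tested of the undifferentiated list was -0.36. Summed over its 30 genes, the level was 889, 856 and 838 CPM in the controls and 1040, 872 and 1080 CPM in Eef1g-cKO. The groups overlapped in this sum, to which Taf4b gave most (mean 365 CPM in the controls and 573 CPM in Eef1g-cKO).

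Of 10 differentiating spermatogonia genes, all tested, 6 fell and 1 rose, with a median log2 fold change of -0.71. The genes that fell included Kit (-1.22, edgeR adjusted p = 0.00108), the receptor of differentiating spermatogonia, Dmrt1 (-0.73, adjusted p = 0.00498) and Stra8 (-0.69, adjusted p = 0.0265), whose promoter drives the Cre. Rhox13 was the gene that rose (1.19, edgeR adjusted p = 0.00498). Uhrf1 and Dmrtb1, the most abundant of the others, had log2 fold changes of -0.22 and -0.13 and did not pass. Of 10 L/Z genes, 9 were tested and 6 rose, none fell (median 1.09), with Smc1b, a meiotic cohesin subunit, at 1.57 (adjusted p = 6.02e-06).

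The tested markers of Sertoli, peritubular and stromal cells moved in the same direction as the members. Of 12 Sertoli cell markers, 6 were tested and 4 fell, and their summed level was 228, 731 and 385 CPM in the controls and 120, 120 and 64.8 CPM in Eef1g-cKO, while Amh, Fshr and Gata1 were at or near 0. Of 10 peritubular and stromal markers, 7 were tested and 5 fell, with sums of 429, 245 and 332 against 63.1, 114 and 37.0 CPM. The 6 Leydig cell markers had no tested gene, with sums of 1.57 to 10.7 CPM. Of 8 blood and macrophage markers 1 was tested, Hba-a1, which did not pass (log2 fold change 1.34, edgeR adjusted p = 0.601). Of 10 pachytene and later genes, 3 were tested and 1 fell, Piwil1, a piRNA-binding protein (log2 fold change -5.94, edgeR adjusted p = 0.00142). Control replicate 2, highest in Sertoli markers, was the highest of its group in Sall4 and the lowest in Id4, Zbtb16, Lin28a, Gfra1 and Uchl1. It lay between the other controls in Foxo1, Trim71, Etv5 and Nanos3, and Zbtb16, Lin28a and Gfra1 had only 7, 5 and 2 reads in it. The part of somatic cells in the members' difference was not tested.

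**Figure D4:**
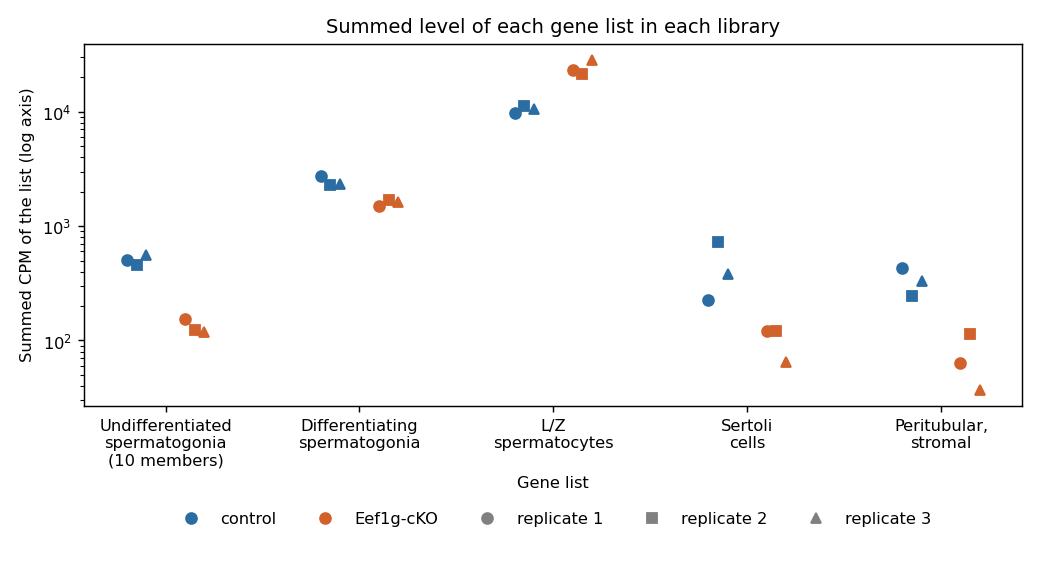
Summed CPM of each gene list in each library on a log axis, controls in blue and Eef1g-cKO in orange. The members lie between 457 and 559 CPM in the controls and between 119 and 154 CPM in Eef1g-cKO; Sertoli and stromal lists lie lower in Eef1g-cKO as well, and the L/Z list higher.

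The tested genes whose pattern over the 6 libraries lay nearest to each fallen member, by root mean square difference of gene-centred log2 CPM, were Rragd (0.44) and Tmc7 (0.56) for Sall4, Kdelc2 (0.28) and Txnrd1 (0.28) for Trim71, Syne1 (0.16) and Vopp1 (0.17) for Uchl1, and Tmeff1 (0.12) and Stil (0.14) for Foxo1. The nearest pattern to Sall4 was the least close of the 4, and that to Foxo1 the closest. The genes named here were picked on the same 6 libraries, so a fold change near that of the member followed from the choice. Of them, Rragd, Tmc7, Kdelc2 and Txnrd1 fell in the test. Syne1 (edgeR adjusted p = 0.0925), Vopp1 (0.0972), Tmeff1 (0.0831) and Stil (0.183) did not pass.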

How the data were processed

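Full-length cDNA was amplified from polyadenylated RNA of sorted cells and sequenced as paired-end reads; the labels and the series text name different versions of the amplification kit. The authors filtered reads with fastp, aligned them to GRCm38 with HISAT2 and counted reads per gene with featureCounts, and deposited raw counts for 54532 genes. Strand use and the treatment of reads with several alignments are not given in the sources used here. All count columns matched a sample (0 unmatched), and no 2 libraries agreed within sampling noise (chi-square per degree of freedom at least 6.37).

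Genes passing filterByExpr (minimum count 10, minimum total 15) were tested with edgeR 4.0.16 in R 4.3.3, with TMM scaling and robust quasi-likelihood fits with genotype as the only term, and p-values adjusted by Benjamini-Hochberg over 8513 genes. Standard errors are the absolute log2 fold change over the square root of F. The script was tested on simulated data. CPM and RPKM were computed from the counts, TMM-scaled library sizes and deposited gene lengths. Members and lists were chosen with earlier results of these data known. The text names the members, up to 4 most abundant passing and 2 other tested genes of each list, paralogs, and the 2 genes nearest to each fallen member. Alternatives used DESeq2 1.42.0 and limma 3.58.1, other scalings, filters and thinned libraries; the GC content correction and the fit without mitochondrial and rRNA genes were added after seeing the data.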

Additional observations from a re-analysis of the deposited data

How the results depend on the processing

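Trim71, Sall4 and Uchl1 fell under every alternative that could test them (log2 fold changes -3.76 to -3.04, -3.95 to -2.75 and -2.24 to -1.5). Foxo1 was lower throughout (-1.32 to -0.82) but lost its call in 6 fits. Fell counts of the members were 3 to 5 over the other fits and none rose; requiring 10 reads in every library left 2, since Sall4 and Trim71 were then not tested. Without 1 replicate the count was 3 to 5, and without Eef1g-cKO replicate 3 it was 5, with Lin28a and Zbtb16 called and Foxo1 not. The median of the tested members, over whichever members each fit tested, was -3.08 to -1.88 without 1 replicate. Members above the floor in every control library were 8, but 5 in thinned libraries and 5 at 10 reads or more. In every Eef1g-cKO library they were 4, but 3 in thinned libraries and 2 at 10 reads or more. Replicate numbers were no pairing of the libraries: the deviations of same-numbered samples gave correlations of -0.04, 0.02 and -0.05. Under a replicate block 377 genes fell and 496 rose, against 512 and 664 without it, and Foxo1 lost its call (log2 fold change -1.09, edgeR adjusted p = 0.0768). Zbtb16, Etv5, Gfra1, Lin28a and Nanos3 were left untested by the filter, and Zbtb16, Etv5 and Lin28a reached its limit in 2 control and 0 Eef1g-cKO libraries.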
